A study of Arabidopsis thaliana with 36 samples.

Results

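Hypocotyls of the ABA-insensitive mutant abi1 were compared with hypocotyls of the wild type Ler. The 3 abi1 and the 3 Ler hypocotyl arrays were chosen by the genotype in their labels, and they are 6 of the 36 ATH1 arrays of the series, which holds 12 groups of 3 on secondary growth and dormancy. Per the labels, abi1 is in the Landsberg erecta (Ler) background and is insensitive to abscisic acid (ABA), with an allele not given in the sources used here. The aba1 hypocotyls, ABA-deficient and also in Ler, were used for a direct comparison with abi1, and the max4 and axr1 hypocotyls with their own wild type Col-0 show the same genes in arrays of another ecotype. All plants grew on compost at 22 °C in 24 h of light after 2 days at 4 °C, and each RNA sample was a pool of 200 to 400 plants. The labels do not say whether the 3 samples of a group were grown separately, so the spread between them may be partly technical. The p-values and standard errors below use a spread estimated over all 36 arrays in 12 groups, not from the 6 compared arrays alone.

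ABA is perceived by soluble receptors of the PYR/PYL family, which then hold back clade A protein phosphatases such as ABI1. With the phosphatases held back, SnRK2 kinases phosphorylate bZIP factors that turn on dehydrins, transporters and other genes of drought and cold tolerance. The hypocotyl of an older Arabidopsis plant thickens through a vascular cambium that makes xylem and phloem, and a cork layer forms on its surface. No probe set was named ABI1, nor any ABA receptor, clade A phosphatase or SnRK2 kinase, so the mutant was not checked here by its own gene and the upstream pathway was not measured by name.

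The values are scaled probe-set intensities, differences are log2(intensity + 16) in abi1 minus Ler with their standard error (SE), and "rose", "fell" and "called" mean an adjusted p under 0.05 in a limma fit over 15924 probe sets. The pseudocount of 16 makes a log2 difference smaller than the log2 of the fold for dim genes. Median intensities lay between 39.9 and 41.6 in abi1 and between 39.0 and 41.4 in Ler. Arrays correlated at 0.976 to 0.985 within abi1, at 0.979 to 0.993 within Ler and at 0.947 to 0.970 between the genotypes. The 3' to 5' signal ratio of actin was 1.49, 1.65 and 1.85 in abi1, against 1.25, 1.25 and 1.29 in Ler. That of GAPDH did not follow it, with 1.52, 1.2 and 1.05 in abi1, against 1.42, 1.36 and 1.32 in Ler, which overlapped. The scanner background was 81.8 to 111 in abi1, against 115 to 132 in Ler. With the scanner background as a covariate, 647 probe sets were called higher and 678 lower, and the part of the 3' to 5' ratios was not tested.

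Of the 15924 probe sets, 1661 were called (10.4%). Of these, 743 rose in abi1 (4.67%) and 918 fell (5.76%). Counts of called list members below are descriptions to be read beside these shares. The rises were the larger changes: 216 probe sets rose at least 2-fold on the log2 scale used (1.36%), while 86 fell at least 2-fold (0.54%). Of these, 100 of the 216 and 33 of the 86 carried 1 gene name. The median change of called probe sets was 0.62 for rises and 0.48 for falls. All 3 abi1 arrays lay above all 3 Ler arrays for 12.4% of probe sets and below them for 15.4%. Without abi1 replicate 2 the calls numbered 940, without Ler replicate 2 they numbered 1102 and without Ler replicate 3 they numbered 1066.

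Ler replicate 1 stood apart from the other Ler arrays, towards abi1, in the genes that changed most. It was the highest Ler array for 154 of the 216 strong rises (71.3%), against 42.9% of all probe sets tested, and the lowest for 71 of the 86 strong falls (82.6%), against 37.6% of all. Without it, 241 probe sets rose at least 2-fold and 99 fell at least 2-fold, of 690 called higher and 831 called lower. Other arrays lay away from the other genotype. Ler replicate 2 was the lowest Ler array for 69.9% of the strong rises, against 35.5% of all. Of the abi1 arrays, replicate 2 was the highest for 51.9% of the strong rises, against 34.4% of all. It was the lowest for 59.3% of the strong falls, against 33.6% of all. Without abi1 replicate 2, 182 probe sets rose and 57 fell at least 2-fold.

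Among the largest rises were genes known from early responses to wounding, touch and stress, beside loci with no symbol in the tables used. AT4G29780 rose most among named genes, with 1378.6, 1243.2 and 1277.0 in abi1, against 103.5, 38.7 and 53.5 in Ler (log2 4.1, SE 0.31, adjusted p = 9.32e-11). The lowest abi1 array was far above the highest Ler array. ORA47, an AP2/ERF transcription factor gene induced by jasmonate, had 491.0, 347.7 and 384.7 in abi1, against 46.5, 23.2 and 28.8 in Ler (log2 3.13, SE 0.27, adjusted p = 9.83e-10). GRX480, a glutaredoxin that binds TGA transcription factors, had 554.0, 703.9 and 681.5 in abi1, against 91.6, 69.6 and 68.2 in Ler (log2 2.84, SE 0.29). For both genes no Ler array came near the lowest abi1 array.

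CML37, a calmodulin-like calcium sensor, was measured at 116.0, 120.7 and 105.5 in abi1, against 5.8, 1.3 and 2.8 in Ler, where all 3 values were under 16, near the background (log2 2.76, SE 0.35, adjusted p = 1.38e-06). AT1G19210 had 137.8, 135.3 and 145.3 in abi1, against 8.4, 5.2 and 2.4 in Ler (log2 2.87, SE 0.27). AT4G27280 had 1876.4, 1629.7 and 1617.4 in abi1, against 645.3, 61.7 and 216.2 in Ler (log2 2.91, SE 0.36). Its Ler arrays spread widely, with replicate 1 highest, and without that array the difference was 3.68. AT2G22880, AT3G04640, AT3G57450 and AT4G27654 rose by 3.27, 3.14, 3.01 and 3.00, and AT2G27080, AT5G17350, AT1G74450 and AT2G01300 by 2.94, 2.88, 2.78 and 2.57. Ler replicate 1 was the highest Ler array for all 15.

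**Figure D1:**
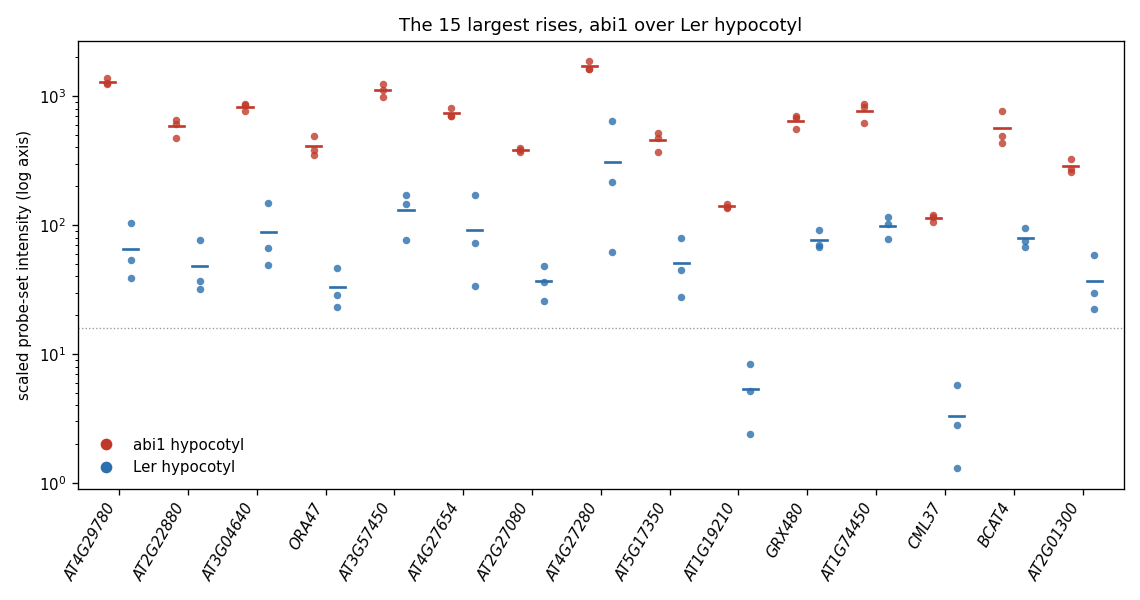
Scaled probe-set intensity (log axis) of the 15 largest rises, with 3 points for abi1 to the left of 3 points for Ler per gene, a bar at each mean and a dotted line at 16. The groups do not overlap for any of the 15, as the rule that chose them requires, and CML37 and AT1G19210 lie under 16 in Ler.

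Further rises of at least 2-fold in genes with a symbol were read out after their values were seen. STZ (ZAT10), a zinc finger repressor of stress responses, had 2556.0, 2304.4 and 2270.1 in abi1, against 1249.9, 335.8 and 560.4 in Ler (log2 1.91, SE 0.27). Its Ler replicate 1 lay closest to abi1, and without that array the difference was 2.41. CML38 rose by 2.08 (SE 0.27) and CML23 by 1.72 (SE 0.25), both calmodulin-like genes. AR781 had 367.6, 593.9 and 553.0 in abi1, against 197.9, 91.6 and 145.7 in Ler (log2 1.72, SE 0.28), and ZCF37 rose by 1.48 (SE 0.26). TET9, a membrane protein of the tetraspanin family, had 95.4, 92.6 and 85.4 in abi1, against 16.0, 16.3 and 19.3 in Ler (log2 1.69, SE 0.18). Of 8 calmodulin and EF-hand genes tested, CML37, CML38 and CML23 rose and none fell, beside 4.67% of all probe sets called higher. The list median was 0.17, against -0.02 over all probe sets.

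Of 12 genes tested in a list of early wound and touch regulators, 10 rose and 0 fell, beside 4.67% of all probe sets called higher. The list median was 2.35. AT4G29780, ORA47, GRX480, AT1G19210, AT2G27080 and AT1G74450, already named among the largest rises, are members of this list. The list was drawn up with earlier results of these data known, so its count, median and summed intensity are descriptions. PUB22 and PUB23, U-box ubiquitin ligases that dampen immune and drought responses, were at 45.2, 60.7 and 55.6 and at 42.5, 76.1 and 46.5 in abi1, against 11.4, 11.9 and 12.0 and 19.1, 6.1 and 4.5 in Ler (log2 1.32 and 1.47). PUB24, a close relative, averaged 315.4 in abi1 and 312.1 in Ler and was not called (log2 0.01). Of 11 U-box and RING ligases tested, PUB22, PUB23 and BRH1 rose and 0 fell, with a median of 0.11, and the BRH1 call (log2 0.36) was lost without any 1 of 5 arrays, all but abi1 replicate 3. The summed intensity of the 12 early genes was 6346 to 6919 in the abi1 arrays, against 977 to 2134 in the Ler arrays. WRKY22 and WRKY53, factors of defence and senescence, rose by 0.85 (SE 0.23) and 0.64 (SE 0.20). The WRKY22 call was lost without Ler replicate 2 or 3, and the WRKY53 call was lost without any of 5 of the 6 arrays, all but abi1 replicate 1. Of 6 WRKY genes tested, WRKY47 fell (log2 -0.28, SE 0.09), a call that was lost in 11 of 17 alternatives, and the list median was -0.08.

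Some of the strong rises were close neighbours on a chromosome. AT4G27652, AT4G27654 and AT4G27657 are consecutive protein-coding genes in the RefSeq gene table (assembly TAIR10.1), and they rose by 2.48, 3.00 and 2.44. AT1G72900, AT1G72920 and AT1G72940, each separated from the next by 1 gene, rose by 1.96, 2.21 and 1.93. AT5G52750 and AT5G52760, which are adjacent, rose by 1.11 and 1.59. In contrast, AT1G74450 rose by 2.78 while AT1G74460, with 1 gene between them, fell (log2 -1.44). These 7 pairs are all that were found with at most 1 gene between members among 133 strongly changed and placed probe sets.

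The strong rises of abi1 were also high in the mutants of the other ecotype, whose arrays are separate from those of abi1 and Ler. Of the 216 probe sets, 196 (90.7%) had all 3 max4 arrays above all 3 Col-0 arrays, against 26.0% of all tested, and 201 (93.1%) had all 3 axr1 arrays above Col-0, against 22.7%. STZ averaged 3159 in max4 and 2362 in axr1, against 119 in Col-0, and ORA47 averaged 955 in max4 and 756 in axr1, against 31.8 in Col-0. AT4G29780 averaged 1849 in max4 and 1338 in axr1, against 40.3 in Col-0. In these genes abi1 stood above Ler, and max4 and axr1 stood above Col-0. Here and for the falls below, max4 and axr1 were set against the same 3 Col-0 arrays. Their shares are therefore not independent of each other. The aba1 levels have the same Ler arrays as reference and are set beside abi1 in the last comparison. What the mutants share besides a mutation, such as handling or harvest, is not given in the labels and was not tested.

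The strong falls leaned the same way as abi1 in max4 but not in axr1. Of the 86 probe sets, 45 (52.3%) had all 3 max4 arrays below Col-0, against 29.3% of all tested. Another 12 (14.0%) had all 3 max4 arrays above Col-0, against 26.0% of all. For axr1, 7 (8.14%) had all 3 arrays below Col-0, against 24.6%. In axr1 the opposite was more common: 62 of the 86 (72.1%) lay wholly above Col-0. Of the 15 largest falls, 13 had all 3 axr1 arrays above Col-0, with a median log2 difference of 0.98, while the median for max4 was -0.12.

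**Figure D2:**
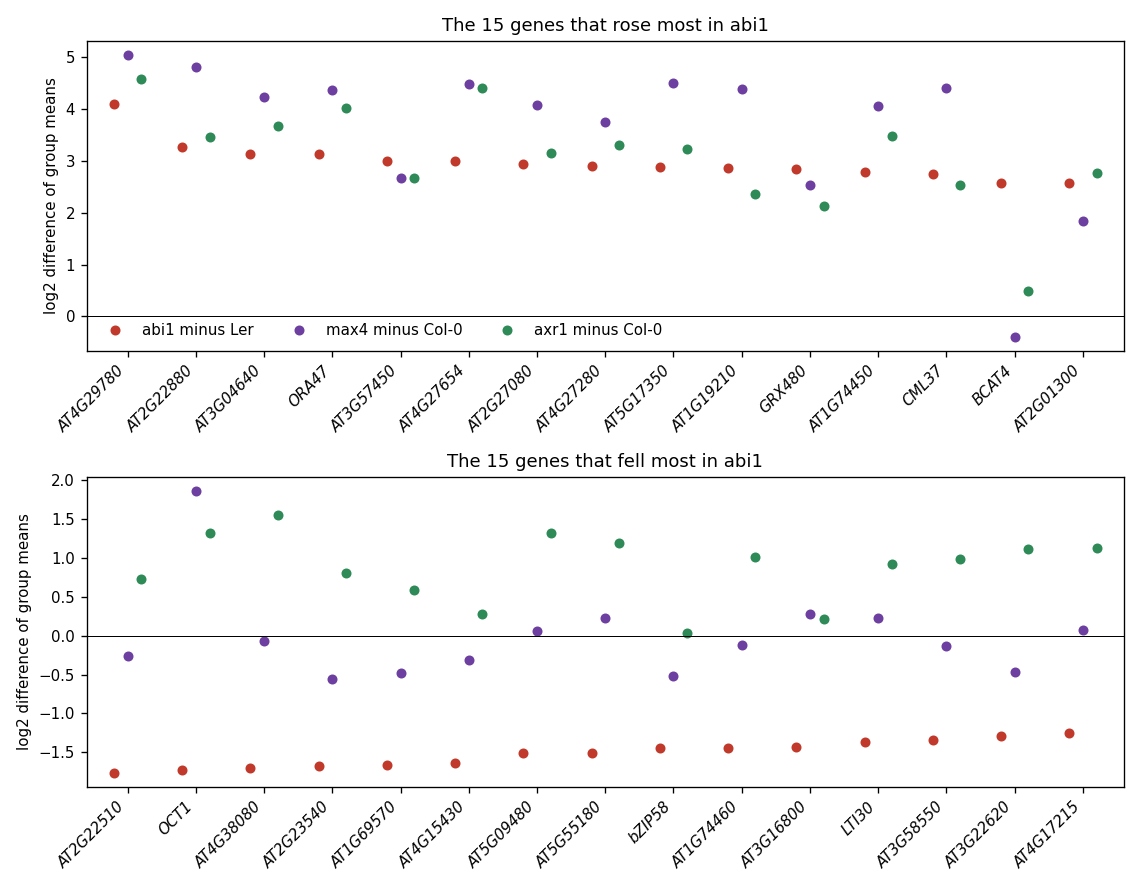
Log2 differences of group means for the 15 largest rises (upper panel) and falls (lower panel) of abi1 over Ler, with max4 minus Col-0 and axr1 minus Col-0 beside them. Of the 15 rises, 14 are also above 0 in max4 and all 15 in axr1, with BCAT4 at -0.40 and 0.49, while all 15 falls are above 0 in axr1.

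BCAT4 differed from the other large rises. It encodes the aminotransferase that starts the chain elongation of methionine-derived glucosinolates, and it had 771.2, 436.7 and 491.5 in abi1, against 94.2, 75.3 and 67.4 in Ler (log2 2.58, SE 0.31, adjusted p = 5.31e-07). Among the 15 it was the only gene higher in abi1 than in aba1 by the direct test (log2 2.26, adjusted p = 4.04e-06), and its max4 arrays lay below those of Col-0. GSTU20, a tau class glutathione transferase named here after its values were seen, had 192.9, 78.6 and 108.3 in abi1, against 39.6, 25.4 and 34.0 in Ler (log2 1.47, SE 0.20), and it was also higher in abi1 than in aba1 (log2 1.58, adjusted p = 1.13e-06). For both genes abi1 replicate 1 was the highest array and the groups did not overlap, which the rule that chose BCAT4 requires.

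Of 8 glucosinolate genes tested, 3 rose and 0 fell, beside 4.67% of all probe sets called higher, and the list median was 0.32. Besides BCAT4 these were the transporter gene GTR2 (log2 0.55, SE 0.12) and UGT74B1, a glucosyltransferase of the core pathway (log2 0.53, SE 0.11). UGT74B1 had 333.2, 383.7 and 299.5 in abi1, against 207.9, 236.2 and 242.5 in Ler. The GTR2 call was lost without abi1 replicate 2. GTR1, a related transporter, had 269.1, 635.4 and 445.6 in abi1, against 185.8, 314.3 and 284.2 in Ler, which overlapped, and it was not called (log2 0.70, SE 0.37). Of 9 glutathione transferases, GSTU20 alone rose. Of 12 beta-glucosidases, BGLU31, BGLU33 and BGLU47 rose (log2 1.12, 0.47 and 0.44) and BGLU40 fell (log2 -0.67). BGLU31 had 27.2, 97.7 and 62.4 in abi1, against at most 20.5 in Ler (mean 17.6 ± 2.76, SD, n = 3), with abi1 replicate 1 close to Ler, and its call was lost in the fit of the 6 compared arrays alone (adjusted p = 0.0589). The BGLU33 call was lost without Ler replicate 3, that of BGLU40 without Ler replicate 2 or 3 or abi1 replicate 3, and that of BGLU47 in 8 of the alternatives.

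ABA and drought responsive genes changed in both directions. Of 9 tested, 2 rose, 1 fell and 6 were not called, beside 10.4% of all probe sets called either way. The median was 0.06, and 5 of the 9 had an unadjusted p under 0.05 by limma. LTI30, a dehydrin, fell to 138.7, 154.8 and 116.7 in abi1, against 204.8, 556.4 and 463.8 in Ler (log2 -1.37, SE 0.39, adjusted p = 0.0208). The groups did not overlap, as the rule for the 15 largest falls requires, and Ler replicate 1 lay nearest to abi1. The LTI30 call was lost without abi1 replicate 3, Ler replicate 2 or Ler replicate 3 (the adjusted p ranged up to 0.133). COR27, a cold-regulated repressor of the clock, had 82.7, 144.5 and 91.2 in abi1, against 64.2, 14.6 and 23.1 in Ler (log2 1.38, SE 0.39, adjusted p = 0.0187). That call was lost with a pseudocount of 64 and without abi1 replicate 2, Ler replicate 2 or Ler replicate 3.

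DI21, a drought-induced gene, rose by 0.29 (SE 0.09, adjusted p = 0.0325), and its call was lost without abi1 replicate 1 or 2 or Ler replicate 1 or 3. The DI21 call was also lost with the scanner background as a covariate and in the fit of the 6 compared arrays alone. HIS1-3, a linker histone induced by drought, had 1079.1, 1219.9 and 1231.8 in abi1, against 1286.1, 1123.5 and 1112.2 in Ler. These groups overlapped, and the difference was 0.00 (SE 0.18, adjusted p = 0.995). The dehydrin COR47 (log2 -0.33, SE 0.20) and HVA22C (log2 -0.49, SE 0.17) were not called, nor were DI19, COR15B and RD2, with log2 differences of 0.31, 0.19 and 0.06. In some alternatives they were: HVA22C was called lower in 3, COR47 lower in 2 and DI19 higher in 2.

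AT5G52050 (DTX50), an efflux carrier of ABA, rose to 149.4, 233.7 and 182.1 in abi1, against 23.8, 29.5 and 18.9 in Ler (log2 2.34, SE 0.45, adjusted p = 0.000611). The groups did not overlap and the call held in all 17 alternatives. AT5G52050 was also high in the other mutants, with averages of 508 in max4 and 213 in axr1, against 4.33 in Col-0. It averaged 398 in aba1, and the direct difference of abi1 from aba1 was not called (log2 -1.03, adjusted p = 0.127). UGT71C5, which glucosylates ABA, and the bZIP gene EEL, an antagonist of ABI5 on late embryogenesis promoters, were not called (log2 -0.07, SE 0.10, and log2 -0.15, SE 0.10). Of 4 late embryogenesis abundant genes, AT2G46140 (LEA27) rose by 0.46 (SE 0.14), a call lost in 5 of the alternatives, and the median was 0.24. Of 17 bZIP genes tested, bZIP58 (log2 -1.45, SE 0.30) and bZIP19 (log2 -0.29, SE 0.08) fell and none rose. Of all probe sets, 10.4% were called either way and 5.76% lower, and the bZIP list median was -0.15. The bZIP19 call was lost without abi1 replicate 1, Ler replicate 2 or Ler replicate 3. GI, a clock component that promotes flowering, rose by 0.87 (SE 0.19), with 871.0, 899.5 and 752.5 in abi1, against 703.9, 349.9 and 373.0 in Ler, and its call was lost in the fit of the 6 compared arrays alone (adjusted p = 0.0599).

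**Figure D3:**
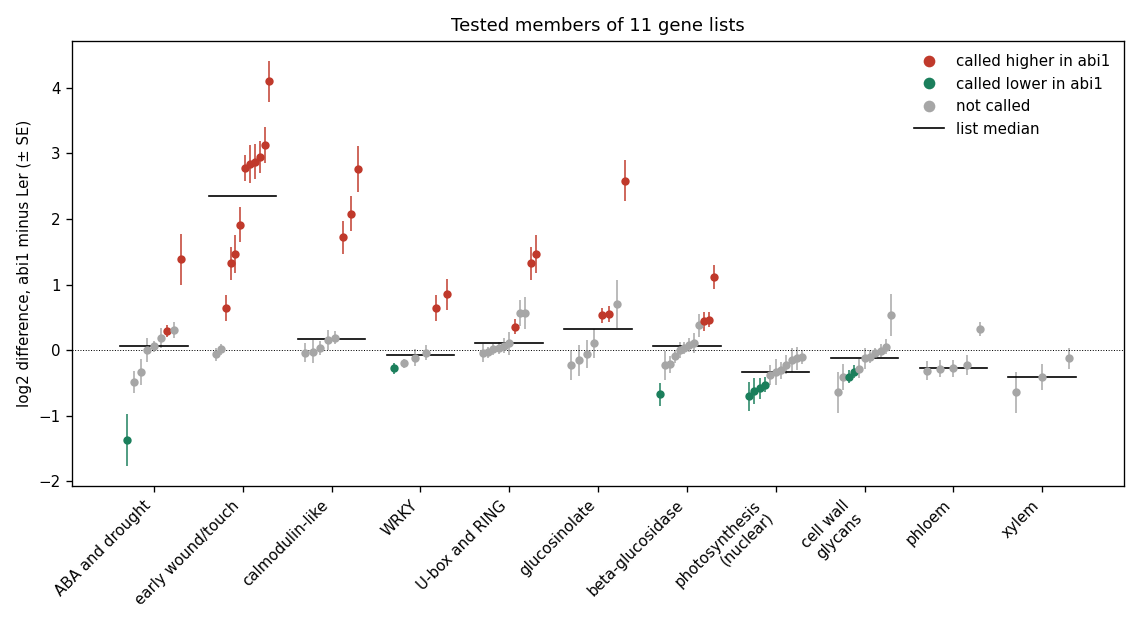
Log2 differences of abi1 minus Ler (± SE) for each tested member of 11 gene lists, coloured by the call, with a line at each list's median. The early wound and touch list has its median at 2.35, the ABA and drought list at 0.06 and the nuclear photosynthesis list at -0.33.

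Of the 15 largest falls, most carry a locus number alone. AT2G22510 fell most among named genes, to 50.9, 38.1 and 52.5 in abi1, against 233.6, 179.9 and 183.9 in Ler (log2 -1.77, SE 0.14, adjusted p = 1.02e-10). OCT1, a transporter of the organic cation and carnitine family, had 141.8, 45.6 and 155.3 in abi1, against 359.2, 395.9 and 371.8 in Ler (log2 -1.72, SE 0.26, adjusted p = 1.59e-05). Its abi1 replicate 2 lay well under the other abi1 arrays, and without it the difference was -1.25. AT4G38080 had 94.3, 101.2 and 150.5 in abi1, against 440.6, 388.2 and 382.4 in Ler (log2 -1.70, SE 0.15). AT5G09480 had 25.1, 32.4 and 44.5 in abi1, against 128.8, 120.7 and 123.4 in Ler (log2 -1.51, SE 0.11). In these 4 genes every abi1 array lay below every Ler array, as the rule that chose them requires.

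The transcription factor gene bZIP58 fell to 129.0, 66.7 and 105.6 in abi1, against 181.8, 355.1 and 388.7 in Ler. Ler replicate 1 was the lowest Ler array, and without it the difference was -1.77. The other named genes among the 15 largest falls, AT2G23540, AT1G69570, AT4G15430, AT5G55180, AT1G74460, AT3G16800, AT3G58550, AT3G22620 and AT4G17215, lay between -1.67 and -1.25.

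**Figure D4:**
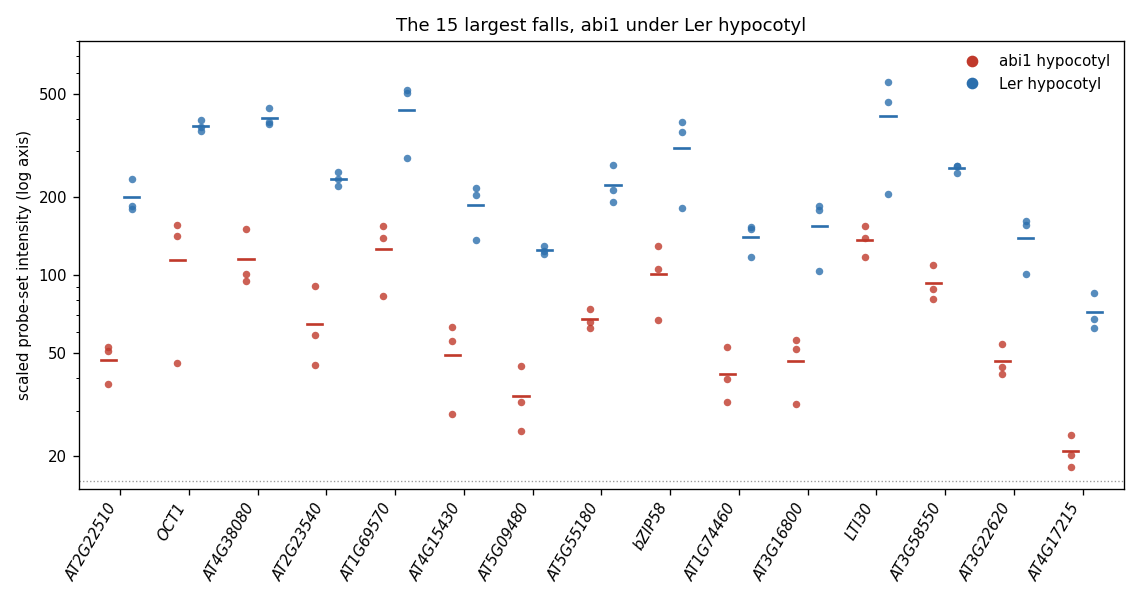
Scaled probe-set intensity (log axis) of the 15 largest falls, with 3 points for abi1 to the left of 3 points for Ler per gene, a bar at each mean and a dotted line at 16. All abi1 points lie below the Ler points of the same gene, as the rule that chose them requires. AT1G69570, bZIP58 and LTI30 have a Ler array that lies well under the other 2.

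Other falls of at least 2-fold with a symbol, read out after their values were seen, included FACT, a caffeoyltransferase that makes alkyl caffeates of suberin-associated waxes. FACT had 105.6, 102.6 and 122.2 in abi1, against 265.0, 265.8 and 276.3 in Ler (log2 -1.18, SE 0.12, adjusted p = 1.41e-08), and it was the only periderm marker with a named probe set. ICL, the isocitrate lyase of the glyoxylate cycle, had 2.9, 3.9 and 15.7 in abi1, all under 16, against 37.3, 41.9 and 25.8 in Ler (log2 -1.15, SE 0.24). ARPN, a plantacyanin, fell (log2 -1.14, SE 0.24), as did AAH, an allantoate amidohydrolase of ureide breakdown (log2 -1.05, SE 0.18), and HHP2, a heptahelical membrane protein (log2 -1.01, SE 0.17). AOR, an oxidoreductase of reactive carbonyls, had 133.0, 24.0 and 111.0 in abi1, against 135.3, 202.8 and 197.6 in Ler. Its call (log2 -1.07, adjusted p = 0.0497) was lost in 9 of 17 alternatives, among them those without abi1 replicate 2, Ler replicate 2 or Ler replicate 3. Without abi1 replicate 2, its lowest array, the difference was -0.48.

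Of 11 photosynthesis genes of the nucleus tested, 4 fell, 0 rose and 7 were not called, beside 5.76% of all probe sets called lower, and the list median was -0.33. Without abi1 replicate 2, LHCB4.3 was the only 1 of the 4 still called. RCA, the Rubisco activase, had 549.9, 237.3 and 494.0 in abi1, against 624.7, 673.7 and 700.5 in Ler (log2 -0.70, SE 0.22). Its call was lost without any Ler array, and without abi1 replicate 2, its lowest array, the difference was -0.34. LHCB4.3, a photosystem II antenna protein, had 45.4, 43.5 and 54.7 in abi1, against 71.8, 76.2 and 79.8 in Ler (log2 -0.53, SE 0.11), and its call held without each of the 6 arrays. PSAN and PSB27 also fell (log2 -0.63 and -0.58), and their calls were lost without abi1 replicate 2, Ler replicate 2 or Ler replicate 3, and that of PSAN without abi1 replicate 3 as well. The summed intensity of the 11 genes was 2059.0, 1385.2 and 2231.6 in abi1, against 2329.5, 2573.2 and 2585.5 in Ler, with abi1 replicate 2 lowest. Of 69 tested genes of the plastid genome, ndhE rose (log2 0.64) and psbH and rbcL fell (log2 -0.68 and -0.63), and the median was -0.02. The ndhE call was lost without any 1 of 5 arrays, all but abi1 replicate 1. The psbH call was lost with the scanner background as a covariate (adjusted p = 0.0508).

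Hormone genes other than those of ABA changed in a few members. MYC3, a bHLH factor of jasmonate responses, fell to 547.6, 415.1 and 422.7 in abi1, against 816.4, 749.9 and 812.7 in Ler (log2 -0.77, SE 0.08, adjusted p = 3.29e-08), and JRG21, a jasmonate-regulated gene, rose (log2 1.06, SE 0.25). The JRG21 call was lost without abi1 replicate 2. Of 5 auxin genes tested, WES1 (GH3.5), an amido synthetase that conjugates auxin, and HAT2, an auxin-induced homeobox factor, fell (log2 -0.79 and -0.73). The HAT2 call was lost in 9 of the alternatives and that of WES1 in 5, among them the fits without abi1 replicate 2. None of 3 gibberellin genes was called by limma, nor had an unadjusted p under 0.05. Of 12 nitrate and ammonium genes, the transporter genes NRT2.5 (log2 -0.61) and AT1G59740 (NPF4.3; log2 -0.50) fell and GTR2 rose. The NRT2.5 call was lost without abi1 replicate 2, Ler replicate 2 or Ler replicate 3, and that of AT1G59740 without abi1 replicate 2 or Ler replicate 1.

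Of the markers of tissues that a hypocotyl holds, 0 of 3 xylem, 0 of 5 phloem and 0 of 2 cambium genes were called by limma, with 2, 4 and 0 of them at an unadjusted p under 0.05. Several of them were called in some alternatives. In the xylem list, IRX15 was called lower in 3 alternatives (with a pseudocount of 1, in the fit of the 6 compared arrays and in that of the 18 hypocotyl arrays) and IRX15-L in 1, with array quality weights. In the phloem list, CLE41 was called higher in 4, among them those without Ler replicate 2 or 3, and 1 or 2 genes were called lower in 4, among them that without abi1 replicate 1. The phloem genes SWEET11, CLE44, OPS and CLE26 had log2 differences of -0.28, -0.23, -0.28 and -0.31, and CLE41, which signals to the cambium, of 0.32. The 3 xylem genes, IRX15, IRX15-L and GUT2 of xylan synthesis, summed to 91.1 to 119 in abi1, against 131 to 135 in Ler, with IRX15 under 16 in both. The phloem genes summed to 609 to 727 in abi1, against 595 to 759 in Ler, and the cambium genes MOL1 and PHV to 352 to 448 in abi1, against 412 to 457 in Ler. In whole hypocotyls, fewer cells of a type and less RNA per cell cannot be told apart. Of 11 cellulose and xylan genes, COB, which orients cellulose, and CSLC6 fell (log2 -0.33 and -0.40). The COB call was lost without abi1 replicate 2, Ler replicate 1 or Ler replicate 3. Of 9 expansins, 6 histones and 9 glycosyl hydrolases of the wall, 0 were called by limma at an adjusted p under 0.05, and 0, 1 and 2 had an unadjusted p under 0.05.

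The direct comparison of abi1 with aba1 set insensitivity to ABA against its deficiency, in the same background and without the Ler arrays. It called 1285 probe sets higher in abi1 (8.07%) and 1171 lower (7.35%). Of the 15 largest rises over Ler, 1 was higher in abi1 than in aba1, 7 were lower and 7 were not called. Of the 15 largest falls, 1 (OCT1) was higher in abi1 than in aba1, 9 were lower and 5 were not called. Both sets were chosen by their abi1 values, which this comparison uses again. CML37 had 116.0, 120.7 and 105.5 in abi1, against 320.2, 443.6 and 361.1 in aba1 (log2 -1.58, adjusted p = 0.00188), and ORA47 had 491.0, 347.7 and 384.7 in abi1, against 762.0, 801.2 and 780.4 in aba1 (log2 -0.93, adjusted p = 0.0181). For STZ the abi1 arrays at 2270.1 to 2556.0 overlapped with those of aba1 at 2332.8 to 2740.1 (log2 -0.10, adjusted p = 0.869). PUB22 and PUB23 were lower in abi1 than in aba1 by 1.29 and 1.70 on the log2 scale.

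The genes highest in abi1 over aba1 were AT2G16365, COR27, BCAT4, AT4G33980 and AT1G80130. COR27 had 82.7, 144.5 and 91.2 in abi1, against 5.0, 3.4 and 9.4 in aba1, all under 16 (log2 2.45, SE 0.39, adjusted p = 3.07e-05). AT2G16365 had 310.7, 369.5 and 252.3 in abi1, against 42.1, 38.4 and 36.5 in aba1 (log2 2.56, adjusted p = 2.95e-07). HIS1-3, OCT1 and NRT2.5 are named here after their values were seen. HIS1-3 had 1079.1, 1219.9 and 1231.8 in abi1, against 332.2, 360.5 and 365.5 in aba1 (log2 1.69, adjusted p = 5.98e-08). OCT1 had 141.8, 45.6 and 155.3 in abi1, against 15.5, 15.4 and 20.6 in aba1 (log2 1.84, adjusted p = 4.2e-06). NRT2.5, a nitrate transporter, had 294.3, 258.6 and 316.3 in abi1, against 68.1, 87.6 and 93.1 in aba1 (log2 1.63, adjusted p = 1.22e-07). In none of these genes did the groups overlap, which the rule that chose COR27 and AT2G16365 requires.

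Of the 9 tested ABA and drought responsive genes, 3 were higher in abi1 than in aba1, beside 8.07% of all probe sets. They were COR27, HIS1-3 and RD2 (log2 0.35, adjusted p = 0.00326). None was lower, beside 7.35% of all probe sets, and the counts are descriptions. LTI30 had 138.7, 154.8 and 116.7 in abi1, against 84.2, 63.2 and 76.0 in aba1, and its difference was not called (log2 0.75, adjusted p = 0.213) although the arrays did not overlap.

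The genes lowest in abi1 relative to aba1 were AT1G53540, AT2G29500, AT5G48570, ATHSP22.0 and AT1G73600. ATHSP22.0, a small heat shock protein, had 13.0, 14.1 and 10.5 in abi1, all under 16, against 509.3, 206.4 and 64.7 in aba1 (log2 -2.89, SE 0.32, adjusted p = 1.22e-07). AT5G48570 (ROF2, FKBP65), a peptidyl-prolyl isomerase induced by heat, had 62.7, 51.5 and 58.3 in abi1, against 703.1, 622.1 and 560.4 in aba1 (log2 -3.13, adjusted p = 7.68e-14). AT1G53540 was at 7.1 to 14.0 in abi1 and at 284.2 to 1047.1 in aba1 (log2 -4.46, adjusted p = 4.69e-15). The aba1 arrays of ATHSP22.0 differed widely among themselves, and abi1 lay below all of them, as the rule that chose these genes requires. Against Ler, none of these 5 genes was called in abi1.

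**Figure D5:**
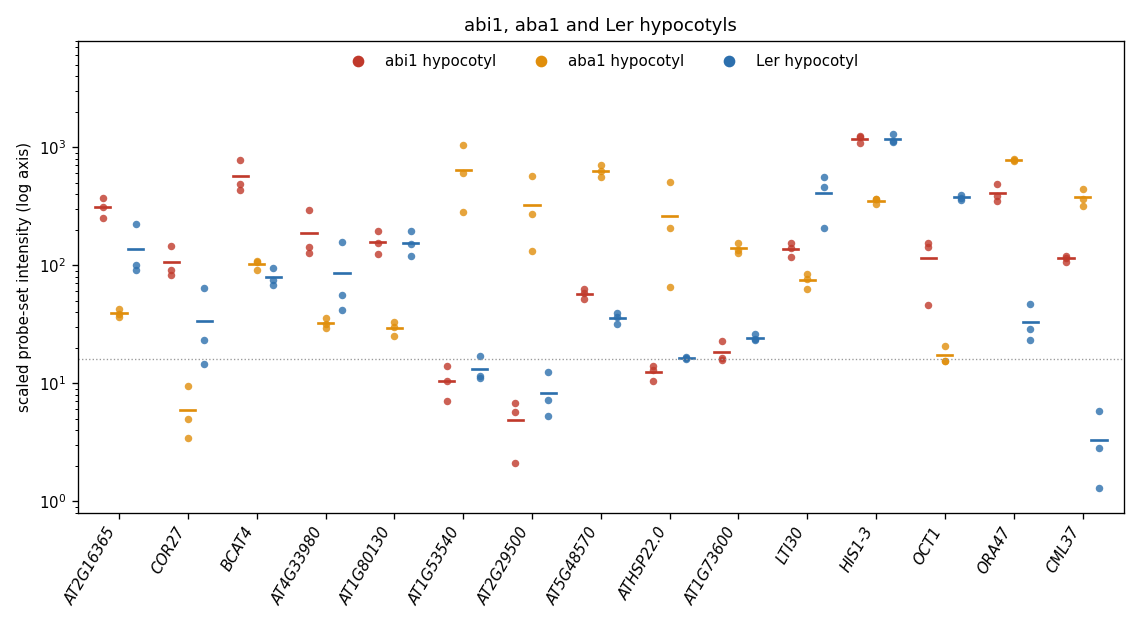
Scaled probe-set intensity (log axis) in abi1, aba1 and Ler hypocotyls, 3 points and a mean bar each, for the 10 genes that separate abi1 from aba1 most and for LTI30, HIS1-3, OCT1, ORA47 and CML37. HIS1-3 lies at 1079.1 to 1231.8 in abi1 and 332.2 to 365.5 in aba1, and ORA47 and CML37 lie higher in aba1 than in abi1.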

How the data were processed

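The authors deposited 1 intensity per probe set and array, on a linear scale, for 22810 probe sets. The values show that each abi1, Ler and aba1 array had a 2% trimmed mean of 100.01. Which software summarised the probes was not given in the sources used here. Per the labels, groups were set by genotype and tissue, and the scanner background came from the same place.

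The 64 controls were dropped. Of 22746 others, 15924 had a mean of 14.7 or more over the 36 arrays, the 30th percentile. The log2 of the deposited intensity plus 16 was fitted with 12 group means in limma 3.58.1 (R 4.3.3), with a variance trend (24 residual and 6.26 prior degrees of freedom). Contrasts were two-sided, with Benjamini-Hochberg adjustment over all 15924. The number of arrays, 3 per group, limits the precision.

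A single gene was given for 8857 of the tested probe sets. Named were the 15 largest rises and 15 largest falls among called genes whose groups did not overlap and whose higher group averaged at least 50, the 5 largest each way against aba1, the tested ABA genes, and up to 4 called members per list (2 of the largest differences where none was called), of which the text leaves some out. The members and the gene lists were chosen with earlier results of these data known, and lists are described by counts and medians. Lists for senescence and flavonoids matched wrong genes by synonym, and that for ribosomal proteins matched mostly plastid genes, so they are not reported. The photosynthesis list was split by genome after it was seen. Replicate numbers were not used to pair the samples in the main fit. Deviations of same-numbered abi1 and Ler arrays from their group means correlated at 0.22, 0.07 and 0.00. Those of differently numbered arrays correlated at -0.23 to 0.20. With 3 arrays per group these values cannot decide whether the samples were paired. Promoter sequences were not used here. Tables were made with Python 3.11.15.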

Additional observations from a re-analysis of the deposited data

Results flagged for a closer look

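The control probe set of 25S ribosomal RNA, which the comparisons do not use, was higher in abi1 than in Ler. It read 103.4, 151.6 and 419.0 in abi1 (mean 224.667), against 81.3, 45.6 and 72.2 in Ler (mean 66.367), and 378.4 to 1391.7 in aba1. All 3 abi1 arrays lay above all 3 Ler arrays, with abi1 replicate 3 highest. The 5S control read 102.6, 178.7 and 339.3 in abi1, against 182.1, 100.1 and 225.1 in Ler, and those groups overlapped. Groups of 3 arrays were too small to look for single outlying values. No part of the 25S difference in other results was tested.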

How the results depend on the processing

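Calls between abi1 and Ler numbered 1661. They became 3219 with array quality weights (1385 higher and 1834 lower, against 743 and 918), a shift whose cause was not tested. A fit of only the 6 compared arrays, in which fewer samples estimate the spread, gave 1018 (476 lower). Calls of at least 2-fold numbered 302, and 150 with a pseudocount of 64, which shrinks differences by construction. Leaving out 1 array in turn gave 940 to 1672 calls (450 to 779 higher, 490 to 893 lower), and 239 to 342 of at least 2-fold. Against aba1, 2456 calls became 1820 to 2142 without 1 array, and no alternative moved that count by more than 1.5 times. With the replicate block, 739 probe sets were called higher and 920 lower, 1659 in all. No named gene that was called reversed its direction. Over the named genes, 185 alternative values lost a call and 24 gained one, against 2083 on the same side of the threshold. The other alternatives were a pseudocount of 1, no intensity filter, a stricter filter at the median, quantile normalization, the scanner background, robust moderation and the 18 hypocotyl arrays alone. With the scanner background as a covariate, lost calls included BRH1, WRKY53, RCA, PSAN, PSB27, SBT1.3, SWEET2 and UGT85A2. In the fit of the 6 compared arrays alone, they included GTR2, JRG21, COB, scpl25, scpl35, SBT1.3, UGT84A4, bZIP19, BRH1, RCA, PSAN and PSB27. Dim genes limit what can be read, since 31.0% to 36.2% of the values on each abi1 and Ler array lay under 16. Most named genes carry a locus number alone, so gene groups are thinly covered.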

Other observations

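Some members of other gene families were called, where 10.4% of all probe sets were called either way, and the counts below are given as descriptions beside that share. Of 28 UDP-glycosyltransferases tested, UGT85A2 and UGT74B1 rose (log2 0.45 and 0.53) and UGT71C2 and UGT84A4 fell (log2 -0.48 and -0.42), with a median of -0.05. The UGT85A2 call was lost without abi1 replicate 2, Ler replicate 2 or Ler replicate 3, and the UGT84A4 call without abi1 replicate 2 or Ler replicate 2. Of 11 cytochrome P450 genes, CYP71B23 fell to 224.6, 255.1 and 265.0 in abi1, against 439.0, 360.6 and 352.2 in Ler (log2 -0.59, SE 0.13), and its call held in all 17 alternatives.

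In the wall, 1 of 7 pectin enzymes, the pectin methylesterase PME61, fell to 593.8, 485.4 and 687.1 in abi1, against 994.3, 1015.2 and 1067.6 in Ler (log2 -0.80, SE 0.23), a call lost without abi1 replicate 2, Ler replicate 2 or Ler replicate 3. Of 6 peroxidases, PRX52 fell (log2 -0.47), a call lost in 5 alternatives, among them those without abi1 replicate 3, Ler replicate 1 or Ler replicate 3. Of 5 xyloglucan endotransglucosylases, XTH18 rose (log2 0.77, SE 0.24), and its call was lost in 8, among them those without any 1 array but Ler replicate 1. Among 24 extracellular and vacuolar proteases, 0 rose and the serine carboxypeptidase-like genes scpl35 and scpl25 and the subtilase gene SBT1.3 fell (log2 -0.54, -0.38 and -0.47), beside a median of 0.02. The scpl35 call was lost without abi1 replicate 1, the scpl25 call without abi1 replicate 2 or Ler replicate 3, and the SBT1.3 call without abi1 replicate 2 or 3 or Ler replicate 1 or 3. Of 17 genes of sugar transport and starch, SWEET2 fell to 13.4, 17.5 and 15.7 in abi1, close to 16, against 30.5, 24.3 and 28.0 in Ler (log2 -0.47, SE 0.13), a call lost without abi1 replicate 1, Ler replicate 1 or Ler replicate 3. SAG101, a lipase-like partner of EDS1 in immunity, was at 64.4, 65.1 and 63.0 in abi1, against 36.5, 40.9 and 40.5 in Ler (log2 0.54, SE 0.14), a call lost without abi1 replicate 2.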
